A study of Mus musculus with 10 samples.

Results

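The genes described here encode BH3-only proteins together with Bax and Bak, the effectors on which they act. Bcl2l11 (which encodes Bim), Bid, Bad, Bbc3 (Puma), Pmaip1 (Noxa), Bmf, Bax and Bak1 (Bak) were selected by gene symbol from the deposited mRNA-sequencing table, and each of these 8 genes was found among its 10767 genes. mRNA had been sequenced from CD8+ cDC1 of the spleen, a DC subset specialized in cross-presentation, which were sorted as CD11c+MHCII+CD8+CD11b- cells from untreated C57BL/6 background mice of 8 to 13 weeks. The 5 Ppef2+/+ and 5 Ppef2-/- libraries came from 5 sorts, with 1 library per genotype in each sort and 3 mice pooled per library. Ppef2-/- mice carry a knock-out first allele in all cells, a gene trap with a lacZ reporter that was placed between exons 4 and 5 of the phosphatase gene Ppef2, while Ppef2+/+ mice have the intact gene. The comparison asks which mRNAs differ when Ppef2 is missing, here those of pro-apoptotic Bcl-2 family members. Pooling leaves differences between single mice unresolved, and p-values rest on pools, not on single mice.

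BH3-only proteins are the sensors of the intrinsic pathway of apoptosis. They bind with a short helix, the BH3 domain, to the groove of anti-apoptotic proteins such as Bcl-2, Bcl-xL and Mcl-1, and some of them also activate Bax and Bak directly. Activated Bax and Bak form pores in the outer membrane of mitochondria, cytochrome c is released and caspases are activated. DCs are short-lived cells, and Bim is known as one of the proteins that limit their lifespan. Several of these proteins are controlled after translation: Bid is cleaved by caspase-8, Bad is held by 14-3-3 proteins once it is phosphorylated, and Bim is phosphorylated and degraded. mRNA levels do not show these steps.

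The BH3 domain is the feature that unites the group, and the coding sequence around its core is shown for 7 members. Pmaip1 is not shown, and whether it has the core as searched is not reported here. The core was searched in translated coding sequences as a leucine, any 2 residues, an isoleucine, valine, methionine or alanine, a glycine, alanine or serine, an aspartate, and an aspartate, glutamate or glutamine. It matched at 1 place in each of the 7 members below and in 310 of 21899 genes with a coding sequence (1.42%), so the match alone does not define a BH3 domain. Each line holds 48 bases of the coding strand (GRCm38, GENCODE M21), with the codon of the leucine and the codons of the small residue and the aspartate in capitals.
Bcl2l11 (chr2:128147135-128147182, plus strand): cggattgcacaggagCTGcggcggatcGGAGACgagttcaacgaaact
Bid (chr6:120897283-120897330, minus strand): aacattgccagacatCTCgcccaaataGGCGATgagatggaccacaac
Bad (chr19:6950777-6950824, plus strand): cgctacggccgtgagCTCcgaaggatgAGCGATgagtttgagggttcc
Bbc3 (chr7:16313758-16313805, plus strand): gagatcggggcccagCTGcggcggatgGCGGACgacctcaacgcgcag
Bmf (chr2:118545094-118545141, minus strand): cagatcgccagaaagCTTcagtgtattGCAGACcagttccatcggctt
Bax (chr7:45465991-45466038, minus strand): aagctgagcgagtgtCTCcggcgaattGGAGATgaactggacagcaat
Bak1 (chr17:27022525-27022572, minus strand): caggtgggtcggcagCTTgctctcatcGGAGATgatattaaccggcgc
In Bax and Bak1, whose proteins have further BH domains, the core lies at codons 63 to 69 of 192 and 76 to 82 of 209. Bmf has it at codons 224 to 230 of 271. In Bcl2l11 it covers codons 150 to 156 of 196, in Bid 90 to 96 of 195, in Bad 151 to 157 of 204 and in Bbc3 141 to 147 of 193.

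One property of the deposited values bears on every comparison. In 10721 genes the normalized counts of both libraries of a sort add up to a sum that does not vary over the sorts, by more than 6.3e-06 of its size, so the mean of each sort had been taken out gene by gene. In normalized counts, differences within a sort and genotype means of these genes are untouched by this. On the log2 scale fold changes can shift a little, as shown for Bbc3 below. The variation from sort to sort has been lost, and a test without a term for the sort underestimates the error. Whole reads could be solved for 9617 genes (89.3%) and for 7 of the 8 members. Pmaip1 is the exception, since no solution was sought for genes with a value of 1000 or more. Levels below are given with the sort means put back (reads times the value of 1 read in that library), except for Pmaip1, whose deposited values are used. Per library, 1396164 to 2273262 reads (Ppef2+/+) and 1508183 to 4409016 reads (Ppef2-/-) lay in these genes, and the Ppef2-/- library was the deeper one in sorts 1 to 3 and the shallower one in sorts 4 and 5. As a check of the labels, Ppef2 had 816 reads in Ppef2+/+ and 18 in Ppef2-/- libraries in all. All 16 cDC1 markers, among them Xcr1, Clec9a and Batf3, were in the table and none passed the test between genotypes. Of other cell types, 1 of 7 T cell markers (Cd5, mean 39.7 normalized counts), 1 of 6 neutrophil markers (S100a9, 10.6), 3 of 7 B cell markers (Ms4a1 with the highest, 144.0) and 4 of 8 erythroid and platelet markers were in the table, while Cd3e and Ly6g are not in it. All 10 macrophage and monocyte markers, led by Lyz2 (794.8) and Cd68 (790.0), and all 7 cDC2 markers were in it. None of the genes of these lists had an adjusted p under 0.05 in limma, with or without the sort as a block.

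Per kilobase of exon, Pmaip1 had by far the highest level of the members, with a mean of 2.01e+03 normalized counts per kilobase over all libraries, above 99.1% of 10373 genes with a length. Bak1 (245) and Bax (198) followed, and Bid (103) came next. Bmf (56.0), Bbc3 (42.5), Bcl2l11 (40.7) and Bad (31.7) were near the middle of the table, above 45.3 to 61.7% of the genes. From Pmaip1 down to Bmf, the ranges over the 10 libraries did not overlap between neighbours. The ranges of Bmf and Bbc3, Bbc3 and Bcl2l11, and Bcl2l11 and Bad overlapped, and Bbc3 was the higher of the pair with Bcl2l11 in 5 of 10 libraries. The order depends on the gene length used. With the length of the longest transcript, Bax (284) was above Bak1 (247), and Bcl2l11 (64.8) was slightly above Bmf (63.4). Bbc3 (49.8) then had the lowest level, below Bad (53.0).

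**Figure D1:**
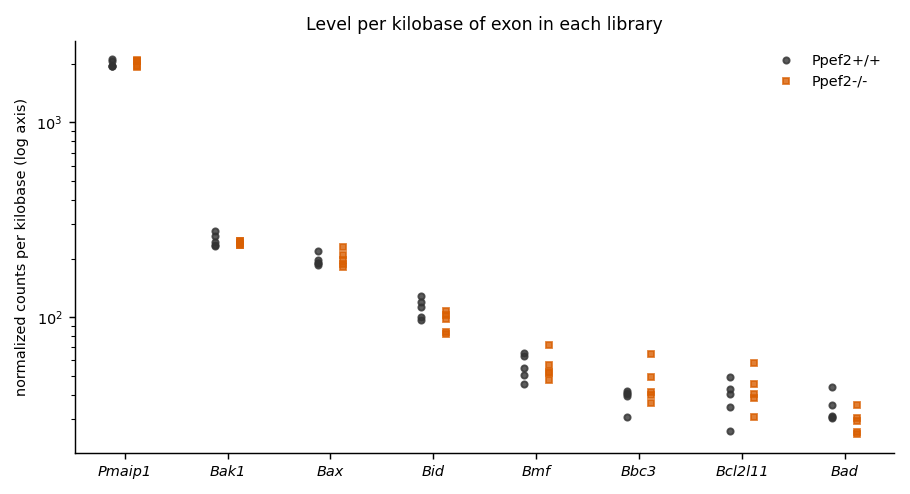
Level of each member in normalized counts per kilobase of exon (log axis) in 5 Ppef2+/+ libraries (circles) and 5 Ppef2-/- libraries (squares), Pmaip1 from deposited values and the others with sort means put back. Pmaip1 stands above 1.92e+03 in every library, while Bmf, Bbc3, Bcl2l11 and Bad each overlap with the next gene in this order.

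Between genotypes, Bid was lower in Ppef2-/- CD8+ cDC1 in all 5 sorts, and it was the only member that differed in the same direction in each of them. Bcl2l11, the gene of Bim, was higher in 4 sorts and lower in 1. In limma without a term for the sort, 1 of the 8 members (Bid, lower) had an adjusted p under 0.05 (Benjamini-Hochberg over all genes), compared to 0.957% of all genes tested and 0.483% that were lower. With the sort as a block, 0 of 8 members passed, compared to 0.00929% of all genes, which is Ppef2 alone. At an unadjusted p under 0.05, Bid and Bbc3 passed without the block (17.5% of all genes) and Bid with it (4.29% of all genes, 1.99% lower). The median log2 fold change of the members was 0.01, compared to 0.00 over all genes, with 5 of 8 above 0 and a range from -0.24 to 0.26. The standard error was larger with the block in 8 of 8 members.

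**Figure D2:**
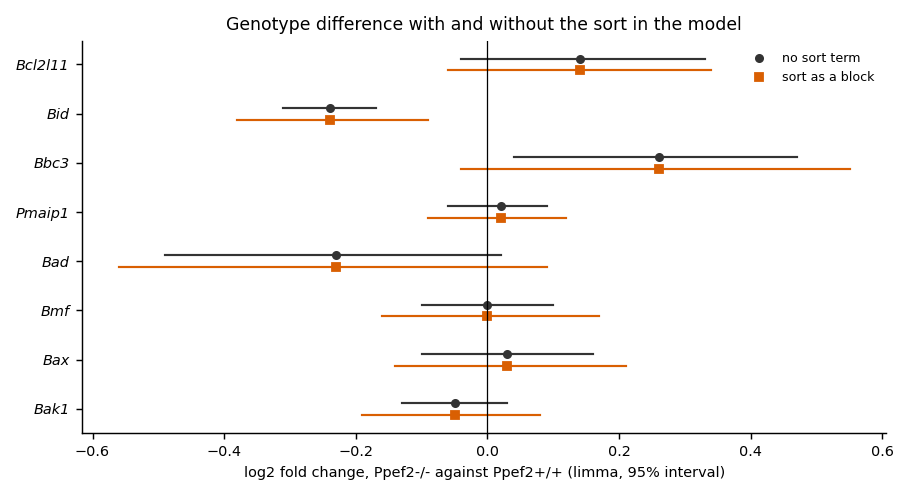
log2 fold change of each member on the log2(normalized count + 1) scale, Ppef2-/- against Ppef2+/+, from limma without a sort term (circles) and with the sort as a block (squares), with 95% intervals (n = 5 libraries per genotype). The interval of Bid excludes 0 in both models, that of Bbc3 excludes 0 only without the block, and the others include 0 in both.

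Bim, the product of Bcl2l11, binds all anti-apoptotic Bcl-2 proteins and can also activate Bax and Bak. Bcl2l11 lies on chromosome 2 from 128126038 to 128162547 (GRCm38, plus strand). From sort 1 to sort 5, Ppef2+/+ libraries had 325.8, 208.6, 345.7, 395.5 and 276.9 normalized counts, from 238, 153, 230, 428 and 278 reads. Their Ppef2-/- counterparts had 246.6, 323.2, 363.5, 468.1 and 310.9 normalized counts, from 531, 547, 388, 443 and 227 reads. The genotypes overlapped, and sort 4 was the highest in both. The means were 310.5 ± 71.1 in Ppef2+/+ and 342.5 ± 81.9 in Ppef2-/- (SD, n = 5). The difference within a sort was 31.95 ± 72.5 normalized counts (SD, n = 5 sorts), that is 9.79% of the mean of the gene, with p = 0.375 in the exact two-sided permutation test that exchanges genotypes within sorts and cannot give a p below 0.0625. limma gave a log2 fold change of 0.14 (95% interval -0.04 to 0.33, adjusted p = 0.427). In the model with the sort as a block the interval was -0.06 to 0.34 (adjusted p = 0.995). The size rests on sorts 1 and 2, since the mean difference was 59.7 normalized counts without sort 1 and 11.3 without sort 2. In the model with the block, the log2 fold change was 0.26 and 0.05 without these sorts.

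The Ppef2-/- to Ppef2+/+ ratio of Bcl2l11 differed between sorts by more than the counting error when each read is taken as 1 molecule. It was 0.757 in sort 1 (exact 95% interval 0.648 to 0.886) and 1.55 in sort 2 (1.29 to 1.87). In sorts 3, 4 and 5 it was 1.05, 1.18 (1.03 to 1.35) and 1.12. The interval was thus below 1 in 1 sort and above 1 in 2 sorts. Intervals on both sides of 1 were found in 16.7% of the 5719 genes with solved reads and a mean of at least 100 normalized counts. The SD of the log2 ratio over the 5 sorts was 0.370 for Bcl2l11, which is larger than in 95.4% of these genes (median 0.179). The Ppef2-/- library was the deeper one in sorts 1 to 3 and the shallower one in sorts 4 and 5. The part of depth in the ratio was not tested. These intervals cover counting error only and leave out variation between pools and preparations. PCR duplicates cannot be told apart from molecules, so the intervals may be too narrow even for counting error.

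**Figure D3:**
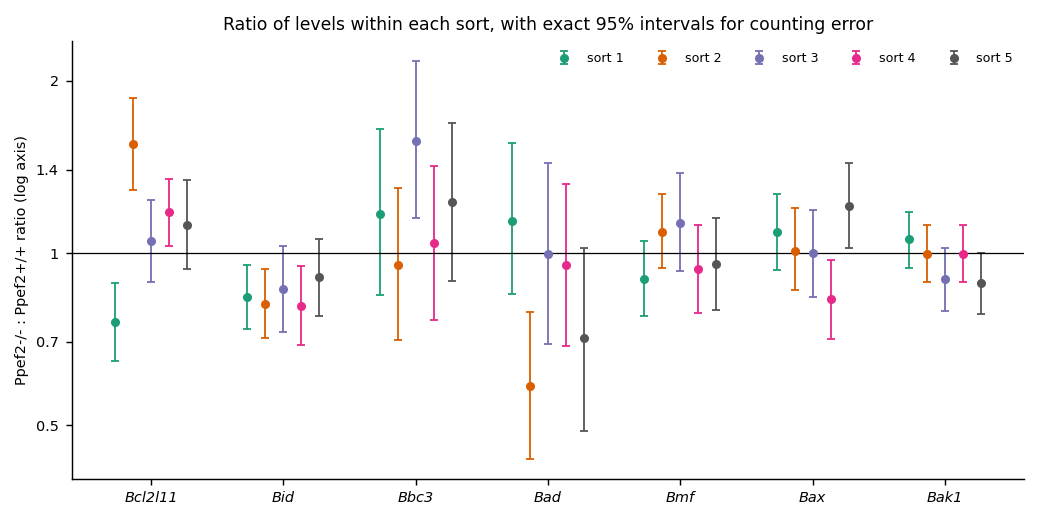
Ratio of the Ppef2-/- to the Ppef2+/+ level (log axis) within each of the 5 sorts for the 7 members with solved reads, with exact 95% intervals for counting error. All 5 points of Bid lie between 0.810 and 0.910, while Bcl2l11 ranges from 0.757 in sort 1 to 1.55 in sort 2.

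Bid connects death receptors to mitochondria, because its cleavage by caspase-8 produces a fragment that activates Bax and Bak. The gene lies on chromosome 6 from 120891930 to 120916853 (minus strand). In sorts 1 to 5 it had 458.6, 425.3, 344.2, 357.7 and 400.3 normalized counts in Ppef2+/+ libraries (335, 312, 229, 387 and 402 reads) and 384.1, 346.8, 297.9, 289.5 and 364.3 in Ppef2-/- libraries (827, 587, 318, 274 and 266 reads). Each Ppef2-/- value was below that of its own sort, but the genotypes overlapped across sorts, with Ppef2-/- libraries of sorts 1, 2 and 5 above the lowest Ppef2+/+ library. The means were 397.2 ± 47.3 and 336.5 ± 41.3 (SD, n = 5), which makes Ppef2-/- 0.847 times Ppef2+/+. The difference was -60.7 ± 18.6 normalized counts (SD, n = 5 sorts) with p = 0.0625 in the exact permutation test within sorts, the smallest it can give. A difference in the same direction in 5 of 5 sorts was found in 6.18% of all genes, and a lower level in 5 of 5 sorts in 2.92%.

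The ratio of Bid was nearly the same in all sorts, at 0.837, 0.815, 0.865, 0.810 and 0.910. Its intervals were below 1 in sorts 1, 2 and 4 and had values between 0.776 and 0.938 in common. Of the genes with a mean of at least 100, 0.664% had 3 or more intervals below 1 and none above. This criterion is the pattern of Bid itself, and the intervals were added after seeing the data, so the share is no test. The SD of the log2 ratio over sorts, 0.069, was larger than in only 3.55% of these genes. From limma, the log2 fold change was -0.24 with a standard error of 0.03 and an adjusted p of 0.0182 without a sort term. With the sort as a block the standard error was 0.07 (95% interval -0.38 to -0.09, unadjusted p = 0.0027 from limma) and the adjusted p was 0.995. With sort means put back it was 1.00 without the block (0.0104% of genes passed) and 0.816 with it (0.0208%), and limma's voom on the reads with the block gave 0.666 (0.0312%). The call of Bid thus held only in models that left out the sort on values from which the sort means had been removed. Even there, it was lost in 5 of 10 fits that left out a library, with an adjusted p from limma of 0.060 and 0.058 without the Ppef2+/+ library of sort 2 or 3 and of 0.060, 0.052 and 0.050 without the Ppef2-/- library of sort 2, 3 or 4.

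**Figure D4:**
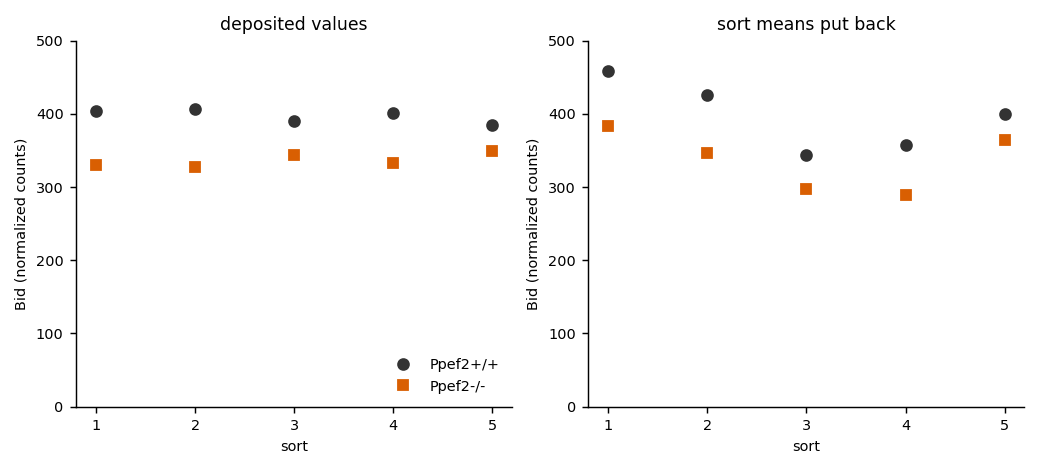
Bid in normalized counts by sort in Ppef2+/+ (circles) and Ppef2-/- libraries (squares), as deposited (left) and with sort means put back (right). In the deposited values the genotypes do not overlap and mirror each other, whereas with sort means put back they overlap and Ppef2-/- is lower within each sort.

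In the deposited values the genotypes do not overlap for Bid, and this holds for 6.18% of all genes, the share that differs in one direction in 5 of 5 sorts, because both libraries of a sort lie at equal distance from a fixed mean. With sort means put back, 0 of 7 members and 0.541% of 9617 genes had no overlap. The exons of Bid share 628 bases with exons of Bcl2l13 on the opposite strand, and the library kit does not keep strand, so some reads may belong to either gene. Bcl2l13 had 278.5 ± 41.4 normalized counts in Ppef2+/+ and 259.5 ± 25.9 in Ppef2-/- (SD, n = 5), a lower level in 4 of 5 sorts and an adjusted p of 0.333 in limma (log2 fold change -0.10). Of 7 pDC markers 6 were in the table, and 1 of these passed, lower, without a sort term and 0 with the block. Their summed deposited level was 1115 to 1233 in Ppef2+/+ and 975 to 1090 in Ppef2-/- libraries, and it was lower in 5 of 5 sorts. That direction alone keeps the ranges apart in deposited values. Tcf4 and Siglech were lower in 5 of 5 sorts, with an adjusted p of 0.018 for Tcf4 from limma without a sort term and 0.711 with the block, while Pacsin1 was lower in 4, Klk1 and Ccr9 in 3 and Bst2 in 2. The mean of Ccr9 was higher in Ppef2-/- (243.4 compared to 238.8 normalized counts). The part of pDC in the result of Bid was not tested, and fewer cells of a type and less mRNA per cell cannot be told apart in bulk samples.

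Puma, the product of Bbc3, is a transcriptional target of p53 that binds all anti-apoptotic family members. Bbc3 (chromosome 7 from 16308393 to 16318205, plus strand) had 65.7, 88.6, 87.2, 84.1 and 85.6 normalized counts in Ppef2+/+ and 77.1, 84.5, 136.8, 87.7 and 105.4 in Ppef2-/- libraries of sorts 1 to 5. It was higher in Ppef2-/- in 4 of 5 sorts and lower in sort 2, by little in sorts 2 and 4, and sort 3 stood out with a ratio of 1.57 (exact 95% interval 1.15 to 2.17). The means were 82.3 ± 9.40 and 98.3 ± 23.9 (SD, n = 5). They rest on 348 and 615 reads in all, so that counting error alone is wide. The log2 fold change was 0.26, with a limma 95% interval of 0.04 to 0.47 (adjusted p = 0.204) and of -0.04 to 0.55 with the sort as a block (adjusted p = 0.995). With sort means put back it was 0.23, and with the block and without sort 3 it was 0.12. The mean difference was 16.1 ± 20.8 normalized counts (SD, n = 5 sorts), 7.67 without sort 3, and the exact test within sorts gave p = 0.1875.

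Noxa, the product of Pmaip1, binds mainly Mcl-1 and A1. Pmaip1 had deposited values of 5319, 5324, 5643, 5742 and 5300 normalized counts in Ppef2+/+ and 5669, 5664, 5345, 5246 and 5688 in Ppef2-/- libraries of sorts 1 to 5. It was higher in Ppef2-/- in sorts 1, 2 and 5 and lower in sorts 3 and 4, with differences from -497 (sort 4) to 388.8 normalized counts (sort 5). The mean difference was 57.2 ± 421 normalized counts (SD, n = 5 sorts), or 1.04%, with p = 0.8125 in the exact permutation test within sorts. The log2 fold change was 0.02 with a limma 95% interval of -0.09 to 0.12 with the sort as a block (adjusted p = 0.997) and -0.06 to 0.09 without it (adjusted p = 0.859). Its variation from sort to sort was not restored, since no reads were solved for it.

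Bad, which is inactivated by growth factor signals through Akt, had 79.4, 111.8, 78.2, 78.6 and 90.6 normalized counts in Ppef2+/+ from sort 1 to sort 5, compared to 90.6, 65.6, 77.8, 75.0 and 64.4 in Ppef2-/-. Bad (chromosome 19 from 6941861 to 6951899, plus strand) was thus lower in 4 of 5 sorts, by little in sorts 3 and 4 and by most in sort 2 with a ratio of 0.587 (exact 95% interval 0.437 to 0.790), and it was higher in sort 1. The means were 87.7 ± 14.4 and 74.7 ± 10.6 (SD, n = 5), from 368 and 507 reads in all. The log2 fold change was -0.23, and its limma 95% interval was wide, -0.49 to 0.02 without a sort term (adjusted p = 0.327) and -0.56 to 0.09 with the sort as a block (adjusted p = 0.995). Sort 2 carried most of the difference. Without it, the mean difference was -4.76 normalized counts, compared to -13.1 over all sorts, and the log2 fold change with the block was -0.08. Without its Ppef2-/- library and with no sort term it was -0.15. Exons of Bad share 524 bases with Gpr137 on the other strand, and limma gave Gpr137 a log2 fold change of 0.11, with an adjusted p of 0.46.

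Bmf, a BH3-only protein that is bound to myosin motors through the dynein light chain Dynll2, had nearly equal genotype means of 294.1 ± 44.6 and 294.5 ± 49.97 (SD, n = 5). Its gene lies on chromosome 2 from 118528757 to 118549687 (minus strand). The values in sorts 1 to 5 were 331.3, 346.3, 239.0, 266.2 and 287.8 in Ppef2+/+ and 299.1, 378.1, 270.7, 249.4 and 275.3 in Ppef2-/- libraries. Sort 2 was the highest sort in both genotypes. The ratio was between 0.903 and 1.13, above 1 in 2 sorts, and none of its intervals excluded 1. The log2 fold change was 0.00 with a limma 95% interval of -0.16 to 0.17 with the sort as a block (adjusted p = 0.999).

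The effectors Bax and Bak were close to equal in the mean. Bax (chromosome 7 from 45461697 to 45466898, minus strand), which moves from the cytosol to mitochondria when it is activated, had 299.8, 291.7, 311.2, 343.8 and 297.8 normalized counts in Ppef2+/+ and 326.9, 296.0, 311.0, 285.3 and 361.5 in Ppef2-/- libraries of sorts 1 to 5. The genotypes overlapped, with ratios near 1 in sorts 1 to 3, 0.830 in sort 4 (exact 95% interval 0.707 to 0.973) and 1.21 in sort 5 (1.02 to 1.44). The means were 308.8 ± 20.8 and 316.2 ± 29.8 (SD, n = 5), with a log2 fold change of 0.03 (limma 95% interval -0.14 to 0.21 with the sort as a block, adjusted p = 0.997). Exons of Bax share 192 bases with Gm45808 on the same strand, a gene that is not in the table.

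Bak1 (chromosome 17 from 27019810 to 27029009, minus strand) encodes the effector that resides in the mitochondrial membrane. It had 558.5, 565.8, 629.8, 582.2 and 667.2 normalized counts in Ppef2+/+ and 589.3, 564.8, 566.7, 581.2 and 591.6 in Ppef2-/- libraries. The Ppef2-/- libraries lay close together, with a mean of 578.7 ± 12.5 compared to 600.7 ± 46.4 in Ppef2+/+ (SD, n = 5), and fell within the range of Ppef2+/+. With 2542 and 3812 reads in all, Bak1 had the most reads of the members with solved reads. Its ratio was between 0.887 and 1.06 and its log2 fold change was -0.05 (limma 95% interval -0.19 to 0.08 with the sort as a block, adjusted p = 0.995). Parts of its exons, 177 and 437 bases, overlap Ggnbp1 on the other strand, which is not in the table.

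**Figure D5:**
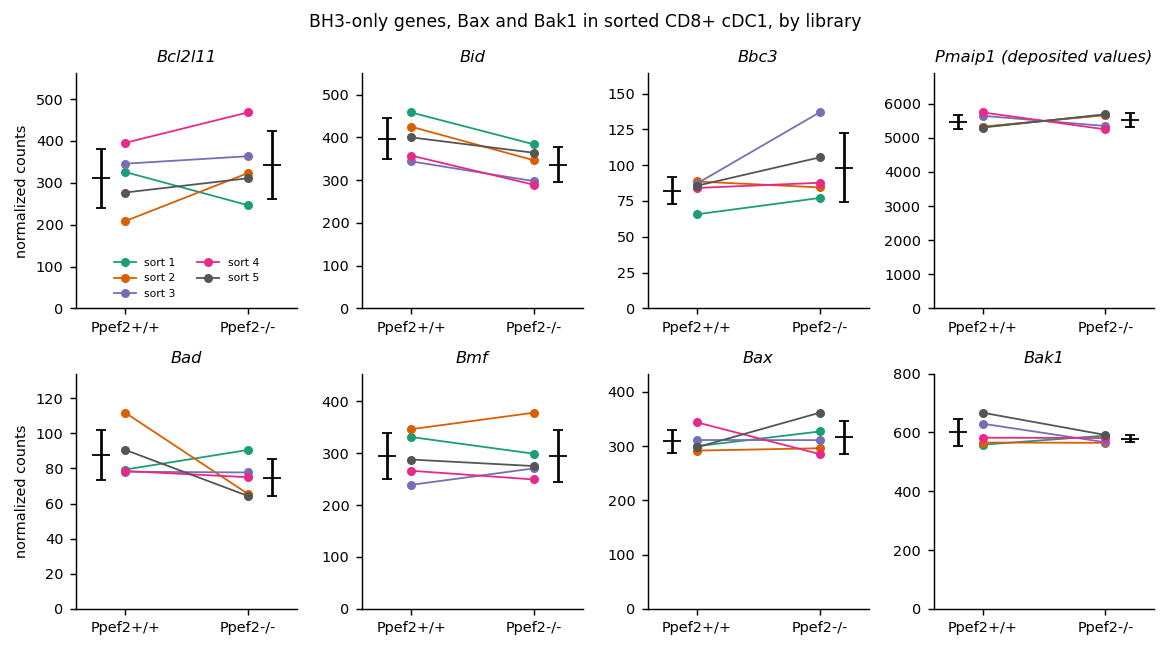
Normalized counts of the 8 members in each library, with both libraries of a sort joined by a line, and the mean ± SD of the 5 libraries of a genotype beside them. Pmaip1 is shown as deposited and the others with sort means put back. All lines of Bid run downward from Ppef2+/+ to Ppef2-/-, whereas lines of the other members run in both directions.

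Over the 7 members with solved reads, 10 of 35 intervals of a ratio within a sort excluded 1 (28.6%), and 8 of 25 (32%) for the 5 members with a mean of at least 100, which leaves out Bad and Bbc3. Of the 28595 intervals of all genes with such a mean, 20.8% excluded 1. Bcl2l11 and Bid held 6 of these 10 intervals, 3 each. Those of Bid were on one side and those of Bcl2l11 on both sides of 1. Bax also had 1 interval on either side, and neither Bmf nor Bak1 had any.

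Other genes of the pathway were read from lists of anti-apoptotic Bcl-2 proteins, further Bcl-2 family members, regulators and partners of the members, and the steps after Bax and Bak. Of the anti-apoptotic genes 7 of 9 were in the table and 0 passed in limma, with or without the block, at an adjusted p under 0.05, as was the case for 7 of 11 further family members and 17 of 18 genes of the later steps. None of these genes had an unadjusted p under 0.05 with the block either. Mcl1, a binding partner of both Bim and Noxa, had 3935 normalized counts in Ppef2+/+ and 4065 in Ppef2-/- (log2 fold change 0.05, adjusted p = 0.36 from limma). Bcl2a1d (0.06) and Bcl2l2 (-0.16) were the other anti-apoptotic genes with the lowest p, and Bcl2l14 (0.09) and Bnip3 (0.15) stood beside Bcl2l13 among further family members. Downstream of Bax and Bak, Cycs, which encodes cytochrome c, had a log2 fold change of 0.13 (limma adjusted p = 0.34) and Dffb, the nuclease that cuts DNA in apoptosis, of -0.27 (limma adjusted p = 0.17). The median log2 fold changes of the 4 lists were between 0.01 and 0.05, compared to 0.00 over all genes.

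Of the 36 regulators and partners, all of which were in the table, 1 rose (0.474% of all genes did) and 0 fell in limma without a sort term, and 0 passed with the block. The summed deposited level of this list was 30361 to 31092 in Ppef2+/+ and 31172 to 31902 in Ppef2-/- libraries, higher in 5 of 5 sorts. That direction alone keeps the ranges apart in values without sort means, and the sum was not tested. Dynll2, the light chain that binds Bmf, had a mean of 636.4 normalized counts in Ppef2+/+ and 716.1 in Ppef2-/- and was higher in 5 of 5 sorts, as were 3.26% of all genes. limma gave a log2 fold change of 0.17 with a standard error of 0.03 and an adjusted p of 0.018, and with the block an adjusted p of 0.995. The unadjusted p of limma with the block was 0.0076, and 2.3% of all genes were higher with such a p under 0.05. Trim2, the ubiquitin ligase that binds phosphorylated Bim, was low, and its reads summed to 48 in Ppef2+/+ and 32 in Ppef2-/-. The Ppef2-/- libraries held 60.9% of the reads in solved genes. With sort means put back, the Ppef2-/- mean of Trim2 was 0.403 times that of Ppef2+/+. The difference of Trim2 was -6.44 ± 6.38 normalized counts (SD, n = 5 sorts), lower in 5 of 5 sorts, as were 2.92% of all genes. It was largest in sort 5 (-16.8), the only sort whose ratio interval excluded 1 (0.0375 to 0.658). Sorts 2 and 3 differed by -1.14 and -1.33, from 3 to 5 reads per library. On deposited values the log2 fold change was -1.16 (adjusted p = 0.131 from limma, 0.995 with the block). With sort means put back it was -1.04 (limma adjusted p = 0.981 with the block). Bcl2l11 was higher in 4 of these 5 sorts and lower in sort 1. Akt1, a kinase that phosphorylates Bad, was lower in 5 of 5 sorts (2.92% of all genes were), by a log2 fold change of -0.10 (limma adjusted p = 0.10, 0.995 with the block).

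The genes whose level followed that of Bcl2l11 most closely over the 10 libraries were Peli1 (Pearson r = 0.924), Kbtbd2 (0.917) and Tnnt3 (0.916), out of 9617 genes with sort means put back. For Bid they were Zfp113 (0.972), Lzic (0.958) and Rasa3 (0.950). These coefficients describe 10 libraries that share sorts in pairs and are the highest of many, so no p is given.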

How the data were processed

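Members and gene lists were chosen with earlier results of these data known. Poly-A mRNA from 10 libraries was sequenced as single-end reads. The authors aligned reads to mm10 (the paper's methods name HISAT, the submitters' processing notes TopHat2 2.0.3), counted them per RefSeq gene in Partek 6.6 and normalized the counts with DESeq2. They set values below 1 to 1 and removed genes with both genotype means under 10. The deposited values are this normalized count signal with the mean of each sort taken out gene by gene. The paper's methods do not name that step. All columns were used, 0 were left out.

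log2(normalized count + 1), which understates changes of low genes, was tested with limma 3.58.1 (eBayes with a trend, two-sided, Benjamini-Hochberg over 10767 genes) in R 4.3.3. The main model had no sort term, as in the study, and the other had the sort as a block. The sort numbers pair the libraries: the labels give each library its sort, and both deposited values of a sort add up to a constant. Whole reads were solved from differences within sorts with steps found on low genes. The chosen steps matched 100.0% of 140 genes and the next best 4.29%. A control with values moved between genes covered genes with a mean under 100, among the solved members only Bad and Bbc3. At most 3852 genes were tried there, and 1 had a solution. Intervals of ratios are exact binomial (Clopper-Pearson), added after seeing the data. Scripts were tested on simulated data. Named genes are the members, Ppef2, Trim2, pathway genes with an adjusted p under 0.05 or among the 3 lowest p with the block, and the 3 genes most like Bcl2l11 and Bid. A gene that this rule names is not reported here. Bcl2l13, Gpr137 and single cell type markers were named after their values were seen.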

Additional observations from a re-analysis of the deposited data

Results flagged for a closer look

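Dixon's ratio was computed for the extreme libraries of the 8 members in both genotypes. Of these 16 groups, about 0.8 would be picked out by chance (1 in 20). In 1 group a library lay apart. Bbc3 had 65.7 normalized counts (48 reads) in the Ppef2+/+ library of sort 1, compared to 84.1 to 88.6 in the other Ppef2+/+ libraries. The Ppef2-/- library of the same sort was also the lowest of its genotype, with 77.1.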

How the results depend on the processing

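Of the 25 alternatives to limma without a sort term, Bid was lower in all 25 and had an adjusted p under 0.05 in 11. Its log2 fold change was -0.24 with the replicate block (the sort), with sort means put back with or without the block, and in voom with the block, where in each case it no longer passed. Leaving out a library gave -0.25 to -0.23, with 5 of 10 fits passing. It did not pass without the Ppef2+/+ library of sort 2 or 3 (adjusted p from limma 0.060 and 0.058), or the Ppef2-/- library of sort 2, 3 or 4 (0.060, 0.052 and 0.050). With the block and without both libraries of a sort it was -0.26 to -0.22. The number of members that passed was 1, and 0 with the replicate block, with sort means put back and in voom (0 to 1 without a library). The number of genes that passed was 103. It was 1 with the replicate block (Ppef2), 193 without a trend, 1 with sort means put back, 2 when the block was added (Ppef2 and Gp2), 3 in voom (LOC100503496 beside these), 1 to 23 without a library and 1 to 4 with the block and without a sort. Signs turned for members near 0: Bmf (-0.005 in voom, -0.02 to 0.02 without a library, -0.04 with the block and without sort 2 or 3), Pmaip1 (-0.004 or -0.01 with the block and without a sort) and Bax (-0.03 without sort 5). Except for Bid, the block changed no other call among the members. By the longest transcript, the level per kilobase was 64.8 for Bcl2l11, 152 for Bid, 53.0 for Bad and 284 for Bax. Leaving out each sort in turn, the mean difference within sorts ranged from 11.3 to 59.7 normalized counts for Bcl2l11, -66.9 to -56.3 for Bid, -19.1 to -4.76 for Bad, 7.67 to 21.1 for Bbc3 and -35.2 to -8.55 for Bak1, and its sign turned for Pmaip1 (-25.7 to 196), Bmf (-7.45 to 8.57) and Bax (-6.80 to 23.8). Reads limit Bad and Bbc3 most.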
